A study of Canis lupus familiaris with 55 samples.

Results

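The loci described here are unannotated transcripts that the authors' assembly placed on the strand opposite to a known gene of the dog genome. They were taken from the merged assembly of all embryonic gonad libraries as the loci in which every transcript carried class code x, the code for a transcript whose exons overlap an annotated gene on the other strand. The rule found 888 of the 58781 assembled loci (1.51%), with 1416 transcripts between them, and used no expression value. A further 273 loci held such a transcript beside transcripts of other classes and were not counted. The gene that each locus overlaps was found from the coordinates (CanFam3, the build of the assembly), and for 861 of the 888 loci it was also the gene named in the assembly file. For 193 of the 888 no base lay under an annotated exon of the other strand, and the gene was found from the span of the locus alone.

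RNA was sequenced from gonads of dog embryos between embryonic day 34 (d34) and d44. The embryos came from a pedigree that segregates XX disorder of sex development (XX DSD) and from control beagles. Per the study, seminiferous tubules first appear at d34 in normal testes and later in XX DSD gonads. In XX DSD a gonad without *SRY* forms some testis tissue. The data are 55 libraries, of which 53 are single gonad pairs and 2 are pools of d34 gonads, and the values are FPKM, read fragments scaled by transcript length and by the reads of the library. The gonad pairs were used up for RNA, so whether a given XX embryo would have formed testis tissue is not known.

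XX DSD gonads at risk came from *SRY*-negative embryos of the model pedigree, of mixed American cocker spaniel and beagle background, that were homozygous or heterozygous for a guanine insertion on chromosome 9 (CFA9) associated with the condition. They numbered 9 at d35, 8 at d37-39 and 6 at d42-44, the last including 2 from d41. XY littermates were *SRY*-positive embryos of the same pedigree that also carried the insertion on 1 or both chromosomes, with 4 at d35, 5 at d37-39 and 3 at d42-44, the last made up of 1 from d41 and 2 from d42. The days are those of the labels, and the study's own list of embryos gives the 3 embryos of d41 an earlier day. XX and XY age-matched controls were beagle embryos without the insertion, with 6 per sex at d37-39, drawn from 2 litters, 3 per sex at d42-44, which are d44 embryos of 1 litter, and 1 pool per sex at d34. Pedigree and control embryos therefore differ in breed background and litter as well as in the insertion, and XX DSD and control libraries were also pooled apart for sequencing, so these cannot be told apart.

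Antisense transcription is common in mammalian genomes. Some antisense RNAs come from a start site that fires in both directions, some are separate long noncoding RNAs inside an intron, and many arise where the ends of neighbouring genes on opposite strands run into each other. An antisense RNA can share its overlapped gene's regulation, can act on that gene, or can have no known relation to it. The libraries here were made with a kit that does not keep strand, so the strand of a spliced locus rests on its splice junctions and that of a locus of 1 exon on the assembly alone. Where exons of both strands lie on the same bases, reads of the antisense locus and of the gene cannot be told apart.

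Of the 888 loci, 222 had 1 exon, 483 had 2, 107 had 3 and 76 had 4 or more. Their exons added up to a median of 2337 bases (50 to 18392), and 466 lay on the plus strand and 422 on the minus strand. They overlapped 849 different genes. For 106 loci the gene was known only by an Ensembl identifier, and 74 loci spanned more than 1 gene. The chromosome with the most was CFA20, with 49 loci (5.52%, against 4.07% of annotated loci), followed by CFA9 with 47 (5.29% against 5.09%).

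Most of these loci sat where a gene ends. A total of 516 (58.1%) ran over the end of the overlapped gene, 213 (24.0%) lay inside it, 97 (10.9%) ran over its start and 62 (6.98%) reached beyond it on both sides. Among the 97 that ran over a start, the 2 start sites were a median of 993 bp apart, and 49 lay within 1000 bp.

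The loci fell into those buried under other exons and those free of them. A median of 24.6% of a locus's exonic bases lay outside every other exon of the assembly on either strand, called free bases here. The share was below 5% in 340 loci and above 90% in 223, and 353 loci had at least 50% of their bases free. It went with position, with a median of 3.21% for loci over a gene's end, 90.8% for loci inside a gene and 79.8% for loci over a gene's start. In 379 loci more than 90% of the bases lay under assembled exons of the opposite strand. Annotated exons of all genes spanned on the opposite strand covered a median of 2.88% of the bases over all 888 loci, and none in 193, all of 2 or more exons.

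**Figure D1:**
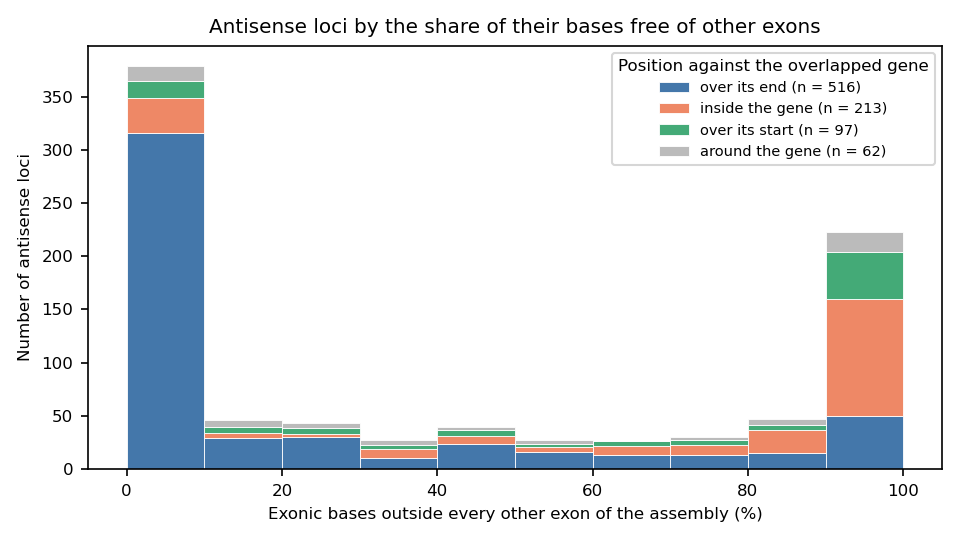
Number of antisense loci (vertical axis) by the percentage of their exonic bases that lie outside every other exon of the assembly (horizontal axis, bins of 10%), stacked by the position of the locus against the overlapped gene. Most of the 516 loci over a gene's end are in the lowest bin, and most of the 213 loci inside a gene are in the highest.

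The antisense loci were mostly low. Their mean over the 55 libraries had a median of 1.11 FPKM, against 1.89 for annotated loci and 9.84 for the loci of the genes they overlap. A mean of at least 1 FPKM was seen in 460, of at least 10 in 118 and of at least 100 in 9, and 167 were above the locus of their overlapped gene. A total of 634 were above 0 in every library, 163 reached 1 FPKM in every library and 100 stayed below 1 FPKM in all of them.

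The more a locus was buried, the higher its listed level and the less steady its value. The median mean was 2.48 FPKM for loci with less than 5% free bases, 1.12 for those between 5% and 90% and 0.620 for those above 90%. Among the buried loci 18.97% of all values were above 0 but below 0.0001 FPKM, and 150 loci (44.1%) had such a value in a library and at least 1 FPKM in another. In the class between, 4.83% of values and 83 loci (25.5%) did so, and above 90% free bases no value and no locus did. FPKM of overlapping transcripts are estimates by which the authors' software divides reads between them, so results on single loci are given with the share of free bases.

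Across the 53 libraries of single gonad pairs, the Pearson correlation of a locus with its overlapped gene on log2(FPKM + 1) had a median of 0.21 over 650 pairs. It was above 0.5 in 146 and below −0.5 in 9. By class the medians were 0.27, 0.23 and 0.13 from the most to the least buried. The points share libraries and, for buried loci, reads, so these are descriptions.

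Libraries held 747 to 839 antisense loci above 0 and 353 to 548 at 1 FPKM or more. At d42-44 the pedigree libraries were shallower than the controls, with a median relative depth of 0.308 in XX DSD and 0.291 in XY littermates against 0.824 and 0.582 in XX and XY controls (deepest library 1, estimated from the steps between low FPKM values). In 4 libraries of d37-39, 3 of XY littermates and 1 of an XY control, more than 4000 unannotated loci of 1 exon reached 1 FPKM, and what changed without them is given beside the results that rest on XY libraries of d37-39. Of the fixed lists of cell types that are not gonadal, the liver genes (*ALB*, *AFP*, *APOA1*) summed to 107 to 136 FPKM in XY controls of d42-44 and to 34.4 to 48.3 in XY littermates, and to 18.4 to 20.7 FPKM in XX controls and 4.09 to 9.10 in XX DSD gonads of d42-44. The skeletal muscle list summed to 0.908 to 1.35 FPKM in XX controls of d37-39 and to 1.03 to 5.54 in XX DSD gonads, and to 1.22 to 1.92 and 0.601 to 0.880 at d42-44. At d37-39 the liver genes summed to 7.00 to 17.1 FPKM in XX and 34.2 to 87.7 in XY controls. The blood and immune list summed to 22.5 to 28.6 FPKM in XY controls of d42-44 and to 34.6 to 38.1 in XY littermates. For the kidney list these sums were 4.37 to 5.62 and 1.85 to 3.22 FPKM. The neural list stayed between 0.0634 and 4.45 FPKM in every group of single gonad pairs, and summed to 5.81 in the XY pool of d34. The adrenal list summed to 1.81 to 2.34 FPKM in XX and 5.98 to 9.71 in XY controls of d42-44. In the pedigree at that age it summed to 1.01 to 2.91 in XX DSD gonads and 3.42 to 6.01 in XY littermates. Their part in the results was not tested.

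The 3 antisense loci with the largest differences lay side by side on CFA20 and marked the XY gonad. XLOC_021274 (20:56782444-56783899, 2 exons, 93.2% free) lay inside ENSCAFG00000030687, XLOC_021275 (20:56784287-56786291, 4 exons, 82.3% free) ran over the start of that gene, and XLOC_021276 (20:56786967-56789076, 2 exons, 0% free) ran over the end of *SF3A2*, which encodes a subunit of a splicing factor. All 3 are on the plus strand, and both genes belong to 1 assembled locus on the minus strand. At d37-39 XLOC_021274 ranged from 358 to 905 FPKM in XY controls (median 540) and from 0.993 to 2.29 in XX controls (median 1.37). The log2 fold change of XX against XY was −7.88 (adjusted p = 7e-11). Every XY gonad from d35 to d44 had at least 172 FPKM and no XX gonad had more than 6.85.

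XLOC_021275 averaged 900 ± 442 FPKM in XY controls (SD, n = 6) and 2.56 ± 0.544 in XX controls (n = 6) at d37-39, and XLOC_021276 averaged 1270 ± 632 and 2.56 ± 1.24. Their log2 fold changes were −7.86 and −8.43 (adjusted p = 6.5e-10 and 2.8e-09). The overlapped gene locus itself moved in the same direction by less, with 43.9 FPKM in XX and 859 in XY controls (−4.19). In the pedigree, XX DSD gonads at risk had 0.881 ± 0.63 FPKM of XLOC_021274 at d37-39 (n = 8) and XY littermates 272 ± 47.2 (n = 5), and at d35 they had 2.12 ± 2.11 (n = 9) and 261 ± 80.6 (n = 4). The groups of XX and XY libraries did not overlap at any age in either set of embryos.

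Within the XX gonads, XLOC_021275 was lower in the pedigree at both ages and XLOC_021276 at d37-39. XLOC_021275 at d37-39 had a lowest, median and highest value of 2.01, 2.31 and 3.3 FPKM in XX controls and of 0.05, 0.295 and 2.93 in XX DSD gonads at risk, a log2 fold change of −1.05 (adjusted p = 0.038) with overlapping libraries. XLOC_021276 fell by 1.38 on the log2(FPKM + 1) scale (adjusted p = 0.008), and XLOC_021274 had −0.45 (adjusted p = 0.27). At d42-44 the values for XLOC_021275 were 1.85, 1.91 and 2.05 FPKM in the 3 XX controls and 0.352 to 1.4 in the 6 XX DSD gonads, with no overlap (−0.66, adjusted p = 0.019). No XX DSD library reached the level of any XY library.

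The XY littermates had less than the XY controls. At d42-44 XLOC_021274 read 195, 199 and 297 FPKM in XY littermates and 587, 627 and 723 in XY controls (log2 fold change −1.50, adjusted p = 0.028), and XLOC_021275 365, 401 and 475 against 1009, 1102 and 1327 (−1.47, adjusted p = 0.027). XLOC_021276 was spread too widely for a call (425, 577 and 1932 against 1371, 1594 and 1874, adjusted p = 0.25). At d37-39 all 3 were called lower (−1.09, −2.49 and −3.78, adjusted p = 0.043, 0.041 and 0.042), but without the 4 libraries with many loci of 1 exon no antisense locus was called in that comparison. At d42-44, without any 1 of C3518, C3691, A1106 and A1108, only 1 antisense locus was called, that over the end of *OSGIN1*.

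The annotated gene table of the study has a row named AMh, for anti-Müllerian hormone, the Sertoli cell hormone that removes the female ducts, and the assembly file has no such symbol. Over the libraries of each sex taken alone, the correlation of this row with XLOC_021274, XLOC_021275 and XLOC_021276 was 0.78, 0.93 and 0.88 in XX gonads (32 libraries) and 0.85, 0.92 and 0.86 in XY gonads (21 libraries), on log2(FPKM + 1). For XLOC_021795, the minus-strand locus that holds both overlapped genes, this correlation was 0.19 in XX gonads and 0.88 in XY gonads. The AMh row itself reached a mean of 3780 FPKM among the XY controls of d37-39, against 12.0 among the XX controls. In the RefSeq gene list of another dog assembly (UU_Cfam_GSD_1.0) AMH is a neighbour of *SF3A2*. Whether these antisense loci, or parts of XLOC_021795, are exons of AMH was not tested.

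**Figure D2:**
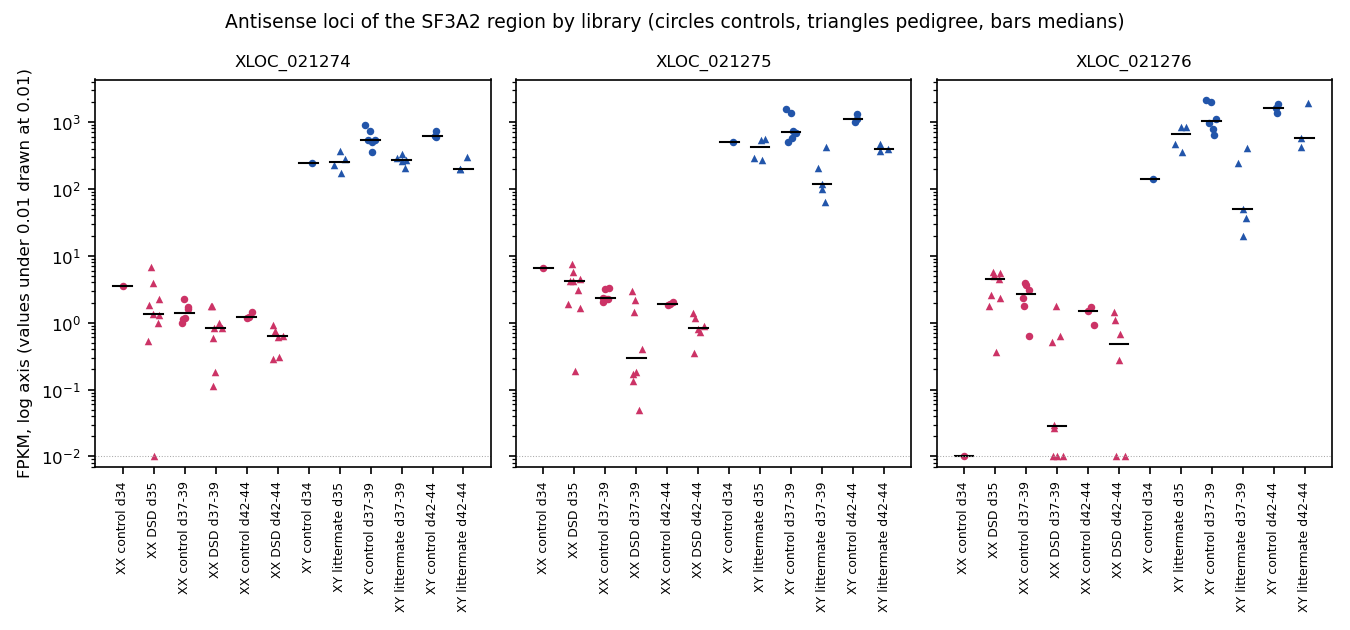
FPKM on a log axis (vertical) of the 3 antisense loci of the SF3A2 region in each library, by group and age (horizontal). Points are libraries, circles for controls and triangles for the pedigree, XX in red and XY in blue, bars are medians, and values under 0.01 are drawn at 0.01. All XX libraries lie below all XY libraries in each panel.

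The antisense locus with the highest mean was XLOC_021200 (20:52902015-52903779, 4 exons, 72.3% free), which averaged 440 FPKM over the end of *KANK3*, a gene for an ankyrin repeat protein of the cytoskeleton whose own locus averaged at most 4.76 FPKM in each group of embryos. It was lower in the pedigree in XX gonads at both ages and in XY gonads at d37-39. XX controls of d37-39 ranged from 487 to 724 FPKM (median 553) and XX DSD gonads at risk from 231 to 412 (median 311), with no overlap (log2 fold change −0.88, adjusted p = 0.0011). At d42-44 the 3 XX controls had 640, 651 and 699 FPKM and the XX DSD gonads 345 to 398 (−0.83, adjusted p = 6.4e-06). XY littermates of d37-39 had 171, 185, 265, 312 and 313 FPKM against 354 to 635 in XY controls (−1.06, adjusted p = 0.042, a call lost without the 4 libraries), and at d42-44 140, 252 and 266 against 373, 474 and 645 (−1.20, adjusted p = 0.058, not called). RPS28, a ribosomal protein gene, neighbours *KANK3* in the RefSeq list and is absent as a symbol from the assembly file.

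The other loci among the 8 highest means were antisense to *RPL3* (293 FPKM, 0% free, with 92.1% of its bases under exons of that ribosomal protein gene), to ENSCAFG00000011389 (264 FPKM, 69.5% free), to *EID1* (211 FPKM, 0% free) and to ENSCAFG00000018651 on the X chromosome (173 FPKM, 32.8% free). *EID1*, an inhibitor of p300 acetyltransferase activity, and its antisense locus XLOC_035578 moved in opposite directions. At d37-39 the locus was higher in XX DSD gonads, 224 ± 31 FPKM (n = 8), than in the XX controls, 164 ± 17.4 (n = 6) (log2 fold change 0.45, adjusted p = 0.0062, libraries overlapping). At d42-44 the XX controls read 134, 139 and 149 FPKM and the XX DSD gonads between 220 and 238 (0.68, adjusted p = 6.4e-06). The gene's locus fell in the same comparisons by 0.45 and 0.57 (adjusted p = 0.003 and 0.00024). All bases of the locus lie under exons of other assembled transcripts, so reads assigned to the other strand cannot be told apart from a change of each RNA.

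XX and XY age-matched controls were compared for differences between the sexes. At d37-39, 514 antisense loci reached a mean of 1 FPKM in a group, and 117 were called (adjusted p under 0.05), 56 higher in XX (10.9%, all loci 12.7%) and 61 higher in XY (11.9%, all loci 13.8%). Over all loci tested 26.5% were called, and the antisense share was 22.8%. At d42-44, 113 of 470 were called (24.0%, all loci 24.8%), 38 higher in XX and 75 higher in XY, where all loci split almost evenly at 12.8% higher in XX and 12.0% higher in XY. The stricter criteria, a change of at least 2-fold and a mean of 4 FPKM or more in a group, were met by 45 (all loci 5.87%) and 53 (all loci 7.85%). Of loci with at least 50% free bases, 34 of 179 and 27 of 141 were called at the 2 ages. Without XX control replicate A1104, A1107 or A1110 the count at d42-44 was 73, 71 or 66.

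XX DSD gonads at risk were compared with the XY littermates of the pedigree in the same way, without pairing by litter. The XX DSD gonads came from 4 litters at each age and the XY littermates from 2, 4 and 2. Some XX embryos of d35 and d42-44 therefore had no XY sibling in the comparison. By the study's list all XX DSD embryos of d42-44 were homozygous for the insertion and most XY littermates of that age heterozygous. Sex, litter and genotype cannot be fully told apart there. At d35, 80 of 421 antisense loci were called (all loci 21.4%), 45 higher in XX DSD (all loci 8.3%) and 35 lower (all loci 13.1%). At d37-39, 48 of 525 were called (9.14%, all loci 7.49%), 21 higher (all loci 3.41%) and 27 lower (all loci 4.09%). At d42-44, 97 of 483 were called (20.1%, all loci 28.3%), 48 higher (all loci 12.8%) and 49 lower (all loci 15.5%). The stricter criteria were met by 34, 29 and 36 at the 3 ages (all loci 5.29%, 2.71% and 6.42%). Where a called locus had an overlapped gene that was tested, both had the same sign in 93 of 105 and 88 of 105 for the controls and in 64 of 74, 40 of 43 and 75 of 89 for the pedigree, and the gene was called with the opposite sign in 6 and 3, and in 3, 1 and 4.

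The 2 sets share no library, so the second can be read for the loci called in the first. Of the 56 loci higher in XX controls at d37-39, 53 were tested in the pedigree at that age, 50 had the same sign and 19 (35.8%) were called higher in XX DSD gonads. Of the 61 lower in XX controls, 57 were tested, 54 had the same sign and 25 (43.9%) were called lower. No locus was called in the opposite direction. The same shares over all loci were 45.1% and 49.9%. In all, 44 antisense loci were called in the same direction in both sets. Without the 4 libraries with many loci of 1 exon the number was 28, of which 24 were among the 44. Of the 117 loci called in the controls 111 were then called again, and of the 48 in the pedigree 25, with the same sign in all 117 and all 48. Among the loci described below, the pedigree calls at d37-39 for XLOC_014148, XLOC_022571, XLOC_049875 and XLOC_056008 were lost.

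**Figure D3:**
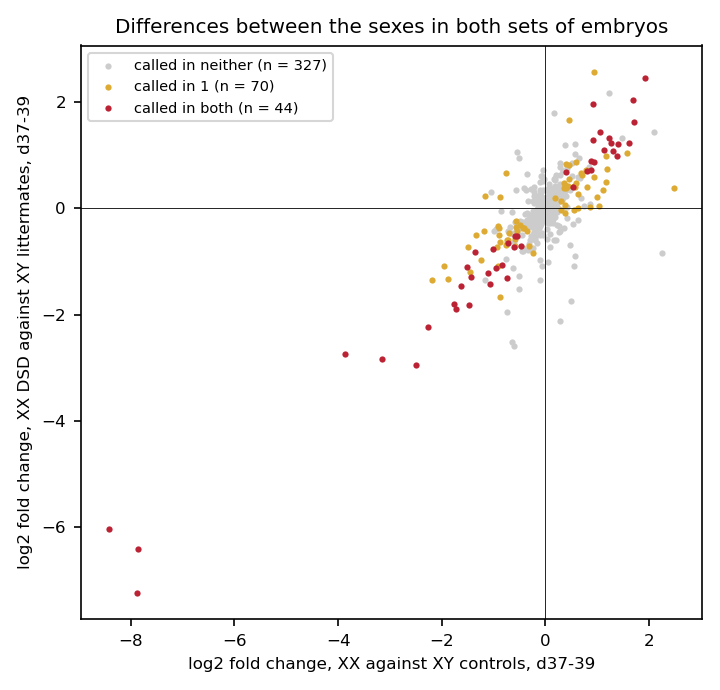
Log2 fold change of XX against XY age-matched controls at d37-39 (horizontal axis) and of XX DSD gonads at risk against XY littermates at d37-39 (vertical axis) for the 441 antisense loci tested in both, on the log2(FPKM + 1) scale. Points are loci, red where called in both sets (44), yellow where called in 1 (70) and grey where called in neither (327), and the 3 points at the lower left are the loci of the SF3A2 region.

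Among the loci higher in XX gonads was one at the end of *PGM5*. XLOC_000364 (1:88823654-88825425, 2.54% free) over the end of this gene, which encodes a phosphoglucomutase-like protein of cell junctions, had a lowest, median and highest value of 20.9, 28.2 and 38.8 FPKM in XX controls of d37-39 and of 4.76, 6.36 and 8.47 in XY controls (log2 fold change 1.93, adjusted p = 6.1e-06). In the pedigree at that age XX DSD gonads ranged from 18.9 to 42.6 FPKM and XY littermates read 2.84, 3.7, 3.73, 5.02 and 5.94 (2.46, adjusted p = 6.2e-07). The gene moved with it by 1.99 and 2.11, and the correlation of both over 53 libraries was 0.93. XX and XY libraries did not overlap at d35, d37-39 or d42-44.

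XLOC_030460 (27:16109189-16110739, 1 exon, 0% free) over the end of *PKP2*, a plakophilin of desmosomes, had 10.7 ± 2.28 FPKM in the XX controls of d37-39 and 2.67 ± 0.94 in the XY controls (n = 6 each, log2 fold change 1.69, adjusted p = 7.8e-06) and 14.6 ± 2.35 and 2.8 ± 0.769 in the pedigree (n = 8 and 5, 2.05, adjusted p = 5.1e-07). XLOC_049875 over the end of *ILDR2*, an immunoglobulin-like receptor gene, had 6.8 ± 1.87 and 1.36 ± 0.516 FPKM in the controls (1.71, adjusted p = 2e-05), XLOC_056008 over the end of *KAL1*, which encodes the secreted adhesion protein anosmin, 3.44 ± 1.28 and 0.68 ± 0.362 (1.38, adjusted p = 0.00031), and XLOC_044891 over the end of *CLMP*, a cell adhesion molecule, 5.45 ± 1.68 and 1.31 ± 1.4 (1.61, adjusted p = 0.0019). Each of these loci had at most 2.54% of its bases free, and the overlapped gene was called in the same direction in each of these control comparisons.

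Among the loci higher in XY gonads, XLOC_032514 inside *TMEM64*, a transmembrane protein gene, had 14.5 ± 1.65 FPKM in XX and 41.3 ± 9.89 in XY controls of d37-39 (−1.43, adjusted p = 5.8e-06), and XLOC_019008 over the end of *FZD8*, a Wnt receptor gene, had 3.06 ± 0.691 and 11.4 ± 0.892 (−1.62, adjusted p = 2.4e-07). Both were also called lower in XX DSD gonads than in XY littermates at d35, d37-39 and d42-44. Between pedigree and control gonads of the same sex, XLOC_032514 rose in XX by 0.44 and 0.54 at the 2 ages (adjusted p = 0.013 and 0.00032), and its values in XX DSD gonads of d37-39, 15.7 to 26.5 FPKM, stayed below those of every XY gonad of that age.

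Sex differences were also seen in loci largely free of other exons, where few bases are shared with another transcript. XLOC_047083 (6:38179502-38198902, plus strand, 6 exons, 98.7% free) spans ENSCAFG00000023132 and is 10863 exonic bases long. It was near 0 in every XX library, at most 0.0906 FPKM, and was listed at 0 in some of them. XY controls ranged from 2.83 to 5.7 FPKM at d37-39 (median 3.92) and read 3.05, 3.89 and 4.88 at d42-44, and XY littermates read 0.505, 1.48, 2.05 and 2.09 at d35, 2.92 to 4.63 at d37-39 and 1.55, 1.8 and 2.27 at d42-44. The sexes were called in all 5 comparisons (adjusted p from 2.8e-07 to 0.0025) and did not overlap in any, while the overlapped gene did not reach the level needed for a test. The d34 pool of XY gonads had 0.0553 FPKM and the XX pool 0.0569.

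XLOC_022571 (21:1129079-1151906, plus strand, 2 exons, 96.1% free) lies inside *CNTN5*, a contactin gene of neural cell adhesion, and moved against it. At d37-39 the locus ranged from 0.0267 to 0.0606 FPKM in XX controls and from 1.29 to 3.0 in XY controls (log2 fold change −1.48, adjusted p = 4.6e-05), and from 0 to 0.324 in XX DSD gonads against 2.01, 2.22, 2.36, 3.57 and 4.91 in XY littermates (−1.82, adjusted p = 0.0014). *CNTN5* itself had 2.47 FPKM in XX and 0.42 in XY controls (1.25, adjusted p = 0.00026) and 2.81 and 0.18 in the pedigree (1.61, adjusted p = 0.0057). The correlation of both was −0.62 over 53 libraries. Without the libraries with many loci of 1 exon the call in the pedigree at d37-39 was lost. At d42-44, where none of those libraries enters, the pedigree call stood (0.0988 ± 0.0285 against 2.6 ± 0.547 FPKM, n = 6 and 3, −1.70, adjusted p = 0.00042).

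XLOC_044711 (58.6% free) over the end of *OSGIN1*, an oxidative stress response gene, ranged from 17.5 to 36 FPKM in XY controls of d37-39 and from 0.314 to 3.84 in XX controls (−3.86, adjusted p = 1.3e-06), a larger difference than that of the gene (13.5 and 27.6 FPKM, −0.93). XLOC_049528 (98.8% free) over the start of *SLC14A2*, a urea transporter gene, had 0.0214 ± 0.0203 and 2.86 ± 1.02 FPKM (−1.88, adjusted p = 6.6e-06). In the other direction, XLOC_049618 (7:70159970-70203111, 99.3% free) inside *DLGAP1*, a gene of a synaptic scaffold protein, had 2.12 ± 1.07 FPKM in XX and 0.354 ± 0.179 in XY controls (1.13, adjusted p = 0.0035), was called in all 5 comparisons of the sexes, and moved with the gene (correlation 0.78). Its call in the controls at d37-39 was lost with d37 embryos alone, in the controls at d42-44 without replicate A1104 or A1107, and in the pedigree at d37-39 with d39 embryos alone or without C3630, C3642 or C3516.

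XX DSD gonads at risk were then compared with XX age-matched controls, the comparison that the study itself tested. At d37-39, 109 of 506 antisense loci were called (21.5%, all loci 13.8%), 65 higher in XX DSD (all loci 5.65%) and 44 lower (all loci 8.11%). At d42-44, 224 of 481 were called (46.6%, all loci 48.5%), 146 higher (30.4%, all loci 19.3%) and 78 lower (16.2%, all loci 29.2%). The median log2 fold change of antisense loci at d42-44 was 0.15, that of all loci tested −0.09. With libraries rescaled by median ratio the median of all loci became 0.01, and the antisense calls 166 higher and 65 lower.

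The calls that were higher lay mainly among buried loci. Of loci with at least 50% of their bases free, 2 of 155 were higher and 24 lower at d37-39, and 18 of 141 higher and 21 lower at d42-44. Of the other loci, 63 of 351 were higher and 20 lower at d37-39, and 128 of 340 higher and 57 lower at d42-44. The overlapped gene had the same sign as the locus in 67 of the 100 pairs tested at d37-39 and in 137 of 211 at d42-44, and at d42-44 the gene was called with the opposite sign in 44. By the criteria of 2-fold and 4 FPKM, 27 (all loci 2.03%) and 66 (all loci 6.15%) were called, and 64 of the 66 had less than 50% of their bases free. When litter entered as a random block, 33 were called at d37-39, and 70 without XX control replicate A1086.

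**Figure D4:**
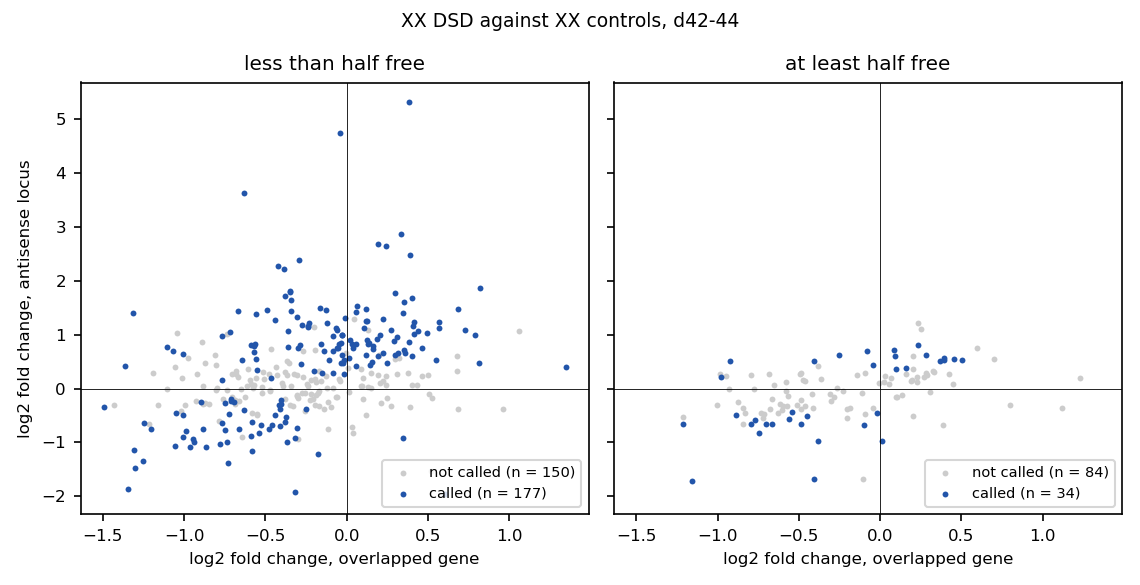
Log2 fold change of XX DSD gonads at risk against XX age-matched controls at d42-44 for each antisense locus (vertical axis) and its overlapped gene (horizontal axis), on the log2(FPKM + 1) scale, for loci with less than 50% (left) and at least 50% (right) of their bases free. Points are loci, blue where called (177 left, 34 right) and grey where not, and the loci above 2 on the vertical axis are all in the left panel.

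Among the loci that rose at both ages was XLOC_021500 (20:39887149-39888077, 0% free) over the end of *RHOA*, a small GTPase that governs the actin skeleton. XX controls of d37-39 ranged from 1.75 to 11 FPKM (median 4.6) and XX DSD gonads from 25.3 to 76.5 (median 48.9), a log2 fold change of 2.97 (adjusted p = 0.00011). At d42-44 all 3 XX controls were under 0.01 FPKM and the XX DSD gonads had 16.7 to 34.1 (adjusted p = 3.4e-06). *RHOA* itself read 282 and 256 FPKM at d37-39 and 258 and 265 at d42-44 and was not called (adjusted p = 0.17 and 0.37). XY littermates of d35 had 67.2 to 83.5 FPKM and XX DSD gonads of d35 51.0 to 80.7.

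XLOC_050094 (0.0666% free) inside *TWSG1*, a secreted binder of bone morphogenetic proteins, was under 0.01 FPKM in the XX controls of d42-44 and had 35.4 to 41.4 FPKM in XX DSD gonads (adjusted p = 1.4e-10), while the gene had 49.3 and 64.6 FPKM (log2 fold change 0.38, adjusted p = 0.00052). Other loci without free bases or nearly so behaved alike at d42-44. XX controls were under 0.01 FPKM, and XX DSD gonads averaged 11.8 ± 3.95 FPKM for XLOC_001334 over the end of ENSCAFG00000002916, 4.73 ± 1.48 for XLOC_047231 over the end of *DR1*, a repressor of transcription, 2.55 ± 0.414 for XLOC_018978 over the end of *RSC1A1*, and 1.37 ± 0.535 for XLOC_033851 over the end of *ABHD2*, a lipid hydrolase gene (n = 6 each, adjusted p from 6.6e-06 to 0.0022). In each of these 5 loci less than 1% of bases were free, and the controls at or near 0 were the deeper libraries. Whether the division of reads between strands moved these values was not tested.

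At d37-39 other loci that rose lay over the ends of *MTSS1L*, *FYCO1*, *GAS1* and *FGF12*. XLOC_044758 (0% free, *MTSS1L*, an actin and membrane binding protein) was under 0.01 FPKM in all 6 XX controls and between 0.327 and 3.86 in the 8 XX DSD gonads (adjusted p = 0.0055), and XLOC_021535 (1.12% free, *FYCO1*, of vesicle transport) averaged 0.336 ± 0.387 and 2.97 ± 1.51 FPKM (log2 fold change 1.52, adjusted p = 0.0026). XLOC_001123 (5.65% free, *GAS1*, a growth arrest protein) had 1.4 ± 0.488 and 7.14 ± 4.06 FPKM (1.60, adjusted p = 0.0053) and XLOC_038801 (0% free, *FGF12*, a fibroblast growth factor gene) 0.991 ± 0.867 and 4.22 ± 2.69 (1.39, adjusted p = 0.012). The calls for *MTSS1L*, *GAS1* and *FGF12* were lost with litter as a block and with d39 embryos alone.

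The loci that fell included several with few or no shared bases. XLOC_031598 (28:40841885-40842404, plus strand, 2 exons, 84.0% free) spans cfa-mir-202, the gene of a microRNA that is abundant in gonads. XX controls of d37-39 ranged from 9.44 to 21.8 FPKM (median 13.4) and XX DSD gonads at risk from 1.46 to 6.37 (median 1.93), with no overlap and a log2 fold change of −2.12 (adjusted p = 0.00014). At d42-44 XX controls read 9.02, 9.08 and 9.92 FPKM and XX DSD gonads 2.67 to 6.16 (−0.97, adjusted p = 0.0017). The locus was highest in XY controls of d37-39 (16.7 to 242 FPKM, median 62.8), which exceeded XX controls by test (−1.95, adjusted p = 0.011) with overlapping libraries. XY littermates of d37-39 had 1.51, 4.1, 4.47, 13.1 and 20.0 FPKM, a log2 fold change of −2.97 against XY controls that was not called (adjusted p = 0.063). The microRNA gene itself did not reach the level needed for a test in the comparisons of XX gonads.

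A pair of loci at *ABHD16B*, a gene of the same hydrolase family as *ABHD2*, fell together. XLOC_026697 (24:47278200-47281673, 99.1% free) ranged from 3.03 to 4.1 FPKM in XX controls of d37-39 and from 0.38 to 1.26 in XX DSD gonads (−1.28, adjusted p = 6.3e-05), and read 3.63, 3.89 and 4.03 against 1.14 to 1.98 at d42-44 (−0.97, adjusted p = 0.00023). XLOC_026699 (24:47296191-47297027, 100% free) had 1.22 ± 0.313 and 0.183 ± 0.176 FPKM at d37-39 (−0.91, adjusted p = 0.013), a call lost with litter as a block. In XY gonads of d37-39, XLOC_026697 had 0.723 ± 0.522 FPKM in littermates and 3.38 ± 1.11 in controls (−1.34, adjusted p = 0.0499, a call lost without the 4 libraries), while at d35 XX DSD gonads and XY littermates had 2.37 and 2.42 (adjusted p = 0.9).

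XLOC_054106 (9:10325809-10331783, 44.9% free) over the end of ENSCAFG00000028642 was listed at 0 in 7 of the 8 XX DSD gonads of d37-39 and ranged from 0.984 to 2.24 FPKM in the XX controls (adjusted p = 0.003), a call lost with embryos of d37 or of d39 alone. XLOC_031587 (100% free) over the end of *BNIP3*, a mitochondrial protein gene, had 0.209 ± 0.25 and 1.17 ± 0.537 FPKM (−0.84, adjusted p = 0.033), a call lost with litter as a block and without C3630 or any 1 of the XX controls but A1086. At d42-44 XLOC_056662 (50.7% free) over the end of *ASMTL* on the X chromosome fell from 2.87, 2.87 and 3.36 FPKM to between 0.135 and 0.4 (−1.72, adjusted p = 4.3e-05), XLOC_042868 (0% free, *UBTD2*, a ubiquitin-like protein) from 3.05 ± 0.533 to 0.0303 ± 0.0676 (−1.97, adjusted p = 5.7e-05), and XLOC_036475 (94.7% free) over the start of *PRDM15*, a zinc finger gene, from 1.45 ± 0.0928 to 0.267 ± 0.271 (−0.98, adjusted p = 0.011). XLOC_003595 (2.33% free) over the end of *SAMM50*, of the mitochondrial outer membrane, fell from 9.06 ± 1.48 to 1.22 ± 3.09 FPKM at d37-39 (−2.78, adjusted p = 0.0013, libraries overlapping) with *SAMM50* at 65.0 and 62.0 FPKM, and it was also higher in XX than in XY controls of that age (0.956 ± 0.851 FPKM, 2.48, adjusted p = 2.3e-05).

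**Figure D5:**
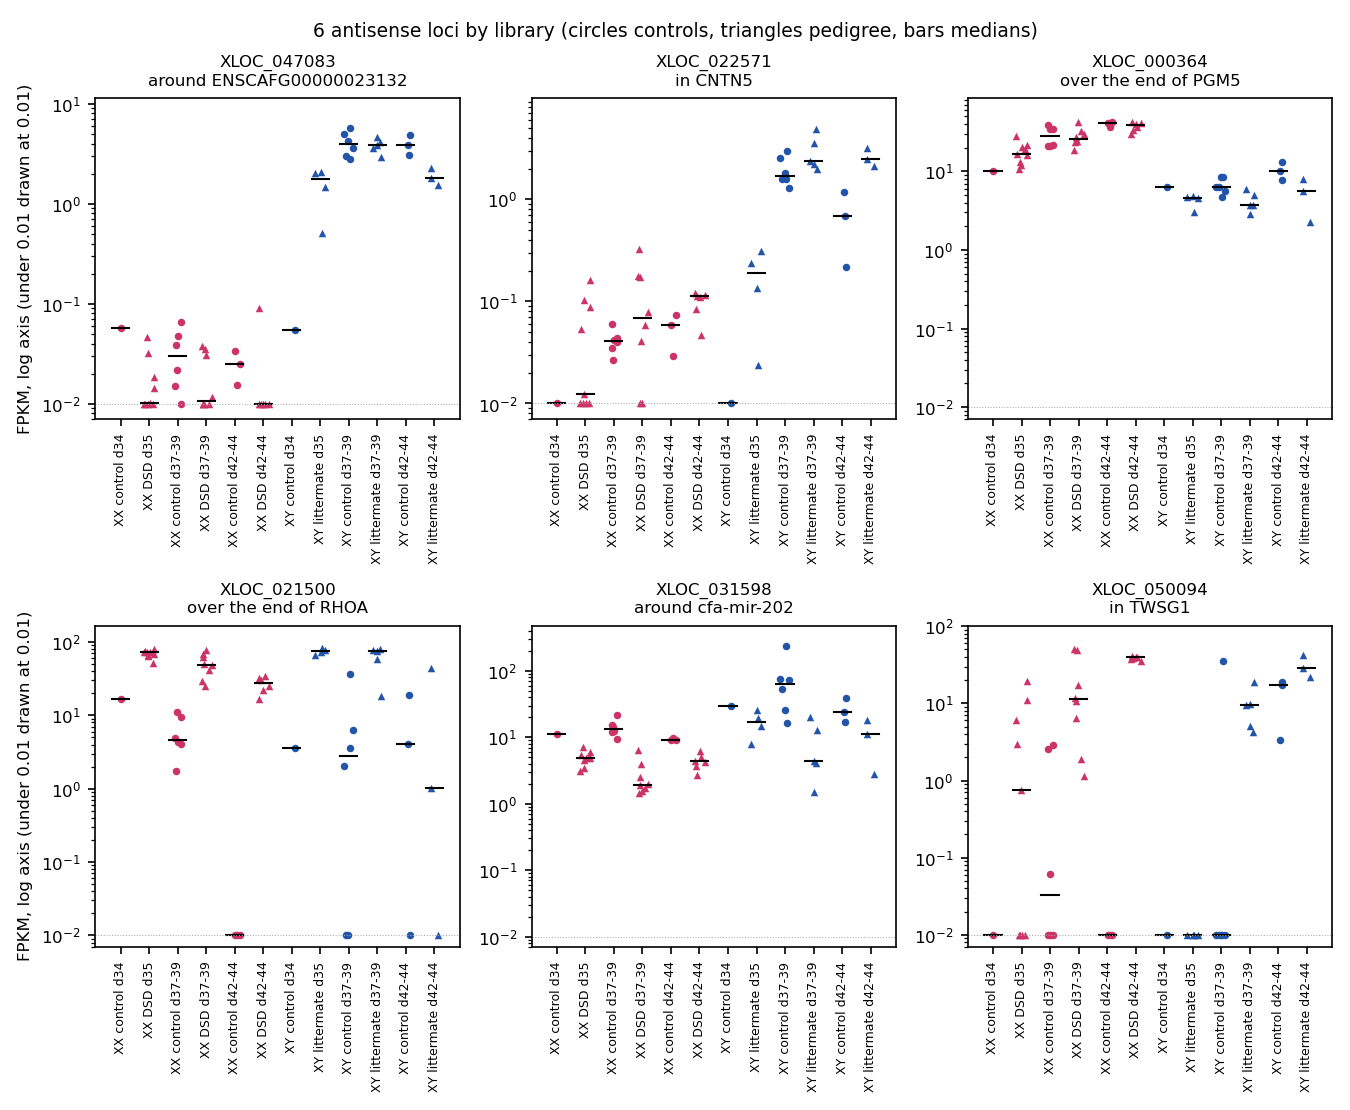
FPKM on a log axis (vertical) of 6 antisense loci in each library, by group and age (horizontal). Points are libraries, circles for controls and triangles for the pedigree, XX in red and XY in blue, bars are medians, and values under 0.01 are drawn at 0.01. The loci around ENSCAFG00000023132 and in CNTN5 are higher in XY gonads of d37-39 and that of PGM5 in XX gonads, that of RHOA is higher and that around cfa-mir-202 lower in XX DSD than in XX control gonads at both ages, and that in TWSG1 is under 0.01 in the XX controls of d42-44.

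XY littermates were compared with XY age-matched controls, from which they differ in insertion, breed background and litter as the XX gonads do. The counts moved widely with single libraries, so a difference that was not called here cannot be assigned to XX DSD. At d37-39, 14 of 550 antisense loci were called (2.55%, all loci 1.29%), 6 higher (all loci 0.402%) and 8 lower (all loci 0.885%). At d42-44, 32 of 480 were called (6.67%, all loci 11.2%), 13 higher (all loci 2.63%) and 19 lower (all loci 8.58%). With litter as a random block the counts were 0 and 113, with no filter on low values 2 and 1, without the 4 libraries 0 at d37-39 and without the d41 embryo 1 at d42-44. By the criteria of 2-fold and 4 FPKM, 11 (all loci 0.779%) and 17 (all loci 3.37%) were called. Leaving out 1 library at a time gave 0 to 64 calls at d37-39, with 0 without any 1 of C3626, C3627, C3637, A1091, A1094, A1096, A1099 and A1100, 3 without C3638, 30 without C3516 and 64 without A1095. At d42-44 it gave 1 to 40, with 1 without any 1 of C3518, C3691, A1106 and A1108 and 14 without C3522.

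XLOC_042633 (0% free) over the end of ENSCAFG00000018879 was higher in the pedigree in both sexes. XY littermates of d37-39 read 21.8, 21.9, 31.5, 35.4 and 35.9 FPKM and XY controls 9.1 to 17.9 (log2 fold change 1.24, adjusted p = 0.025), and XX DSD gonads ranged from 18 to 33.4 against 4.44 to 11.4 in XX controls (1.48, adjusted p = 0.00019). XLOC_044758 of *MTSS1L* was also higher in XY littermates, with 2.76 ± 1.49 FPKM at d37-39 against 0.0856 ± 0.21 (adjusted p = 0.048) and 1.07, 3.53 and 4.33 FPKM at d42-44 against values under 0.01 (adjusted p = 0.046). The comparisons of the 2 sexes use different libraries of litters that are in part the same.

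Lower in XY littermates of d37-39 were XLOC_021114 (20:49360312-49360716, 51.3% free) over the start of *JUNB*, a subunit of the AP-1 transcription factor, with at most 4.42 FPKM against 5.54 to 14.9 (−2.73, adjusted p = 0.025), and XLOC_003985 (1.49% free) over the end of *ATXN7L3B* with 0.176 to 6.17 against 6.86 to 17.5 (−1.95, adjusted p = 0.0496). Both were called lower in XX DSD than in XX control gonads as well, XLOC_003985 by 1.15 at d37-39 and 1.07 at d42-44 with no overlap (adjusted p = 0.0038 and 0.00084). At d42-44 the loci lower in XY littermates included XLOC_044711 of *OSGIN1* (4.62, 5.07 and 5.89 against 17.7, 20.1 and 20.9 FPKM, −1.73, adjusted p = 0.0049), with its gene (−1.58, adjusted p = 0.008), and XLOC_023205 (17.4% free) of *FIBIN* (2.55 ± 0.11 against 8.73 ± 2.25, −1.43, adjusted p = 0.028). Of the named loci of XY littermates, only the *OSGIN1* call at d42-44 was kept in every fit without 1 library and with every other filter and model.

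Higher in XY littermates at d42-44 was XLOC_051409 (8:42663089-42668402, 43.3% free) over the end of *ZFP36L1*, a gene for messenger RNA decay. It read 12.6, 13.1 and 17.1 FPKM against 4.3, 4.53 and 5.79 in XY controls (1.38, adjusted p = 0.028), and 20 to 36.2 in XX DSD gonads against 11.2, 11.2 and 11.8 in XX controls (1.06, adjusted p = 0.00068). *ZFP36L1* itself was lower in XX DSD gonads (−0.36, adjusted p = 0.015) and had −0.24 in XY littermates (adjusted p = 0.19).

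The overlapped genes were also looked up in lists of genes by which gonads and their neighbouring tissues are usually read. Of 14 lists (ovary and testis pathways, steroidogenesis, germ cells, bipotential gonad, HOX genes, imprinted genes, and markers of kidney, adrenal, endothelium, blood, muscle, nerve and liver), 4 loci overlapped HOX genes, and 1 each an imprinted, a kidney and an endothelial gene. No locus overlapped any of the 21 ovary pathway genes, the 13 testis pathway genes or the 8 germ cell genes of the lists found in the assembly. AMH, on the testis pathway list, has no symbol in the assembly file, so an overlap with it could not be found. In all, 849 genes were overlapped, beside 23459 annotated loci, so lists this short can hold none by chance. The locus inside *IGF2* (XLOC_016143, 0% free), a fetal growth factor gene, had 61.3, 76.2 and 79.2 FPKM in XX and 108, 115 and 118 in XY controls of d42-44 (−0.65, adjusted p = 0.0095), and 60.4 ± 8.9 in XX DSD gonads, not called against XX controls (−0.26, adjusted p = 0.16).

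XLOC_014289 (17:37321997-37326460, 81.9% free) inside *PAX8*, a transcription factor of kidney and thyroid, had 2.89, 5.6 and 6.69 FPKM in XX and 1.49, 1.81 and 2.35 in XY controls of d42-44 (1.02, adjusted p = 0.042), and 2.34 to 3.9 in XX DSD gonads against 0.836, 1.36 and 1.44 in XY littermates (0.95, adjusted p = 0.0011). The gene had 2.18 and 3.4 FPKM in the controls (−0.47, adjusted p = 0.057), and the kidney list summed to 2.85 to 3.83 FPKM in XX and 4.37 to 5.62 in XY controls of d42-44. The loci of *HOXD11* (22.9 FPKM), *HOXB3* (1.84 FPKM) and *CDH5*, the cadherin of endothelium (9.82 FPKM), were not called in any of the 9 comparisons.

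On CFA9 between 5 and 9 Mb, a stretch that holds the insertion, 3 antisense loci were assembled. XLOC_053363 (9:5285702-5296773, 100% free) over the start of *NUP85*, a nuclear pore gene, read 1.5, 1.76 and 2.33 FPKM in XX controls and 2.71 to 4.64 in XX DSD gonads of d42-44 (0.62, adjusted p = 0.0069), and had 2.01 ± 0.332 and 3.09 ± 0.816 at d37-39 (0.43, adjusted p = 0.052). XLOC_053357 (15.1% free) over the end of *TSEN54*, of transfer RNA splicing, fell from 5.55 ± 0.0404 to 3.71 ± 0.658 FPKM at d42-44 (−0.49, adjusted p = 0.0084), as its gene did (−0.44). XLOC_054085 over the start of *SDK2*, an adhesion gene, averaged 0.115 FPKM, was above 0 in 27 of 55 libraries and was not tested. The study also looked for unannotated transcripts in this stretch and reported none that differed between XX DSD and XX control gonads. It used another test, and the calls given here carry no fold threshold.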

How the data were processed

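Per the labels and the study's methods, the authors made single-end libraries from polyadenylated RNA, used cutadapt for trimming (version 1.5 per the labels, a later one in the study's methods) and TopHat2 2.0.13 for alignment to the CanFam3 build, and assembled and measured loci with Cufflinks 2.2.1. The deposited discovery table holds FPKM per locus from Cuffnorm, normalized by transcript length and library size, for 55 libraries, all of which were used. FPKM carries no counting interval, and depth was estimated only relative to the deepest library.

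Members were the loci whose transcripts all have class code x. The overlapped gene was the annotated gene on the opposite strand with the most overlap. Free bases were counted against all other assembled exons of both strands. Group comparisons used limma 3.58.1 (R 4.3.3, lmFit and eBayes with trend, two-sided) on log2(FPKM + 1) of the 2 groups, over all loci that averaged 1 FPKM or more in one of them, with Benjamini-Hochberg adjustment over all of them and calls at an adjusted p of 0.05. Fold changes are on this scale, which understates low loci. Values under 0.01 FPKM are given as such. Each of the 9 comparisons was fitted alone, after tests on simulated data. Litters are shared within groups, so p-values measure the spread between these embryos. Pandas 2.3.3 and scipy 1.17.1 were used.

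The members and gene lists were chosen with earlier results of these data known. Named are the 8 loci with the highest means, up to 5 per direction and comparison by ratio of at least 2 without overlap of libraries, loci overlapping listed genes, loci of CFA9 between 5 and 9 Mb, up to 8 called alike in both sets of sexes at d37-39, and their genes. Some loci that this rule names are not reported here. Of the annotated gene table, only the row AMh was used. Alternatives were other pseudocounts, filters, scalings and models, litter blocks, single ages and leaving out each library. No genome of the build was used, so no sequence is shown.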

Additional observations from a re-analysis of the deposited data

Results flagged for a closer look

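In 13 of the 102 groups of 4 to 10 libraries that were examined for the named loci, 1 library stood apart from the others of its group. The rule was the share of the group's range taken up by the gap to the next library, on FPKM. Its rate by chance of about 1 in 20 holds for normally distributed values. Groups with most values at or near 0 are not such, so no excess can be read from the 13. None was left out. Among XX DSD gonads of d37-39, C3515 had 1.75 FPKM of XLOC_021276 (group median 0.0283) and 0.204 FPKM of XLOC_054106, which was listed at 0 in the other libraries. In the same group C3624 had 10.2 FPKM of XLOC_038801 over the end of *FGF12* (median 3.24) and C3633 had 29.0 FPKM of XLOC_014148 around a U4 gene (median 7.64).

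Among XX DSD gonads of d42-44, C3694 had 1.19 FPKM of XLOC_054106 (median 0.0955), C3688 had 0.168 FPKM of XLOC_042868 over the end of *UBTD2* (median under 0.01), C3696 had 11.4 FPKM of XLOC_049875 over the end of *ILDR2* (median 6.56) and C3517 had 0.332 FPKM of XLOC_049528 over the start of *SLC14A2* (median 0.0542). Among XX controls of d37-39, A1086 had 2.26 FPKM of XLOC_031587 over the end of *BNIP3* (median 0.969) and A1101 had 6.20 FPKM of XLOC_003595 over the end of *SAMM50* (median 9.60).

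Among XY controls of d37-39, A1095 had 0.514 FPKM of XLOC_044758 over the end of *MTSS1L*, where the other libraries were under 0.01, and 17.9 FPKM of XLOC_042633 over the end of ENSCAFG00000018879 (median 11.2). Among XY littermates of d35, C3618 had 0.209 FPKM of XLOC_025234 over the end of *ACVR2B*, an activin receptor gene.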

How the results depend on the processing

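The 87 results on named loci were picked for an adjusted p under 0.05, a ratio of at least 2 and no overlap of libraries. A fit without 1 library could therefore not reverse their sign, and that none of the 87 reversed is no evidence for them. They were on the same side of the threshold in 766 of 893 fits without 1 library and in 676 of 762 other fits, and 22 of them were lost in a fit without 1 library. With litter as a random block 65 of 77 were the same. By 2-fold and 4 FPKM 51 of 87 were, where the 2-fold part was met in advance.

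Without 1 library, the counts of antisense loci called were 70 to 114 (d37-39) and 187 to 225 (d42-44) for XX DSD against XX controls, 0 to 64 and 1 to 40 for XY littermates against XY controls, 98 to 137 and 66 to 115 for XX against XY controls, and 56 to 104, 43 to 53 and 82 to 107 for XX DSD against XY littermates at d35, d37-39 and d42-44. With 2-fold and 4 FPKM the counts were 27, 66, 11, 17, 45, 53, 34, 29 and 36 in the same order, and with only loci with at least 50% of bases outside every other exon 26, 39, 5, 7, 34, 27, 20, 14 and 23. XX DSD against XX controls at d37-39 gave 33 with the litter block and 66 with d39 embryos only. XX against XY controls at d37-39 gave 67 with d39 and 76 with d37 embryos only.

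XY littermates against XY controls at d37-39 gave 25 with a pseudocount of 0.1, 2 with no filter, with a filter of 0.5 FPKM or without trend, 5 with d39 embryos only, and 0 with the litter block (limma, 108 at an unadjusted p under 0.05) and without the 4 libraries standing apart (44, against 133 with all libraries). At d42-44 the comparison gave 1 with no filter and without the d41 embryos, 2 without trend, 17 with a filter of 0.5 FPKM and 113 with the litter block. The cause was not tested. The litter block could not be used for XX against XY controls of d42-44, which are of 1 litter. The 113 calls with the block at d42-44 rest on 2 litters of littermates against 1 of controls, so litter and group cannot be told apart in them. Shallower pedigree libraries at d42-44 limit what can be said of loci near 0. No paired analysis by replicate number was possible because each embryo has a name of its own, and litter entered as a random block instead.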

Other observations

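The 2 pools of d34 gonads entered no comparison and have no replicate. XLOC_021274, XLOC_021275 and XLOC_021276 had 241, 496 and 138 FPKM in the XY pool, and 3.52, 6.57 and under 0.01 FPKM in the XX pool. XLOC_021114 over the start of *JUNB* had 16.6 FPKM in the XY and 2.80 in the XX pool. XLOC_022571 inside *CNTN5* was listed at 0 in both, and XLOC_032514 inside *TMEM64* had 3.20 FPKM in the XY and 5.08 in the XX pool.

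Of the 697 antisense loci whose overlapped gene was found in the RefSeq gene list of another assembly (UU_Cfam_GSD_1.0), 180 (25.8%) had a neighbour there whose symbol is absent from the assembly file used here, and among 14055 annotated symbols the share was 25.8% as well. Besides *SF3A2* and *KANK3*, the named loci with such neighbours lay at *OSGIN1* (NECAB2 and MLYCD), *GAS1* (TUT7), *SAMM50* (PARVB) and *DLGAP1* (TGIF1 and AKAIN1). Others lay at *PGM5* (CBWD1), *TSEN54* (TMEM94) and *FZD8* (GJD4). Whether any of these loci belongs to its neighbour was not tested.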
